A study of Mus musculus with 6 samples.

Results

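The cell cycle and DNA replication genes examined here are 44 genes chosen by name from what they are known to do: cyclins, cyclin-dependent kinases (CDKs) and their inhibitors, replication genes, and genes of mitosis. All 44 were found in the deposited table by symbol, 1 entry each among 23016, and all 44 passed the filter on low values. They were compared between cerebral cortex of 3 Fezf2 KO pups (Fezf2-/-) and 3 wild type pups (Fezf2+/+), all at postnatal day 0 and born to heterozygous (Fezf2+/-) parents. Each library was made from total RNA of 1 brain, and litter m1 gave the first 2 pups of either genotype (replicates 1 and 2), while replicate 3 was a pup of litter m2. The protein FEZF2 is a zinc finger regulator of transcription found in neurons of the deep cortical layers, and the design asks which transcripts differ in cortex without an intact copy. Nothing in the labels gives the sex of the pups or the part of the gene that the mutant allele lacks.

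A dividing cell passes from G1, when cyclin D and E kinases release E2F transcription factors, into S phase, when DNA is copied, and then through G2 into mitosis, which is driven by cyclin B with CDK1. In the developing cortex the dividing cells are radial glia beside the ventricle and intermediate progenitors above them, and around birth most cortical neurons have left the cycle while progenitors that give rise to glia still divide. CDK inhibitors of the Cip/Kip and Ink4 families hold cells out of the cycle and are also present in neurons that no longer divide. Whole cortex mixes dividing with non-dividing cells, so fewer dividing cells and less of a transcript in each dividing cell cannot be told apart in these values.

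Promoter windows show which of the 44 genes hold the same motif letters, and they are given here because such letters are known to mark genes of different phases of the cycle. RefSeq promoter windows on mouse build GRCm38.p6, from 250 bases before to 50 bases after a gene's start, were at hand for 36 of the 44 genes, in 40 windows. The letters of 3 motifs were searched on both strands. The CHR (cell cycle genes homology region) was taken as TTTGAA or TTTAAA, the second of which reads the same on both strands; in known mitotic genes it is bound by MuvB complexes. The CCAAT box, bound by NF-Y, was taken as CCAAT. The E2F motif was taken as TTTGGCGC, TTTCCCGC, TTTCGCGC or TTTGCCGC, which can overlap one another on opposite strands. For this purpose 23 members were taken as G2 and M genes (the A and B cyclins, Cdk1, Mki67, Top2a, and the kinase, checkpoint, spindle and kinetochore genes) and 17 as G1 and S genes (the D and E cyclins, Cdk2, Cdk4, Cdk6, and the replication group with E2f1).

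A CHR was found in 18 of 20 windows of G2 and M genes (90.0%) and in 4 of 15 windows of G1 and S genes (26.7%), against 9062 of 32851 windows of all promoters (27.6%). With TTTGAA alone the shares were 75.0%, 6.67% and 17.9% in the same order, and in windows that end at the start they were 40.0%, 6.67% and 16.0%. An E2F motif was found in 1 of 20 windows of G2 and M genes (5.0%), that of Cdk1, and in 5 of 15 windows of G1 and S genes (33.3%), against 744 windows of all promoters (2.26%). A CCAAT box stood in 18 of 20 windows of G2 and M genes (90.0%), in 10 of 15 of G1 and S genes (66.7%) and in 37.4% of all promoter windows. Of the CDK inhibitors, 3 had a window, and Cdkn1b alone held a CHR. These shares describe letters in a window and were not tested, and Cdkn1a, Cdkn2c, Mcm7 and Prc1 enter with 2 windows each.

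**Figure D1:**
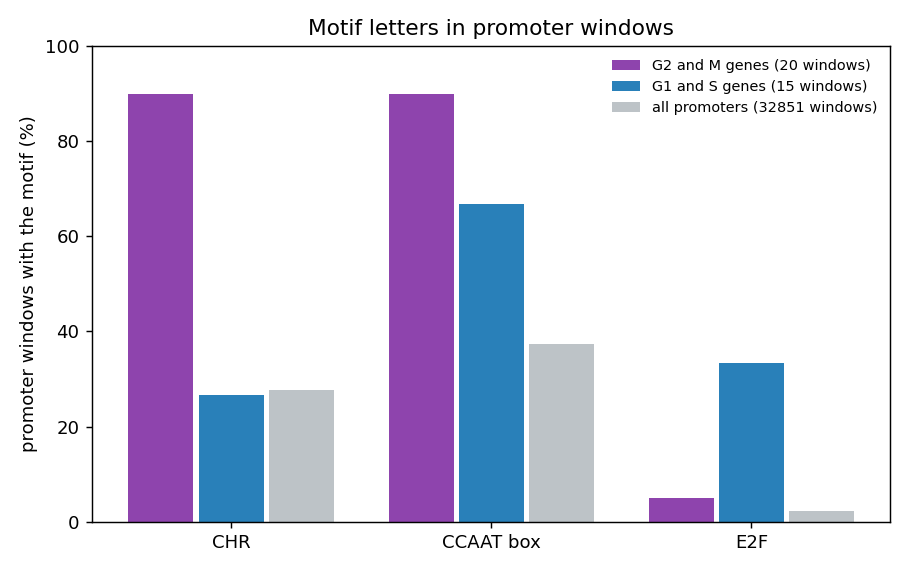
Share of promoter windows (in %, y axis) that hold the letters of the CHR, the CCAAT box or the E2F motif, for windows of G2 and M genes (20), of G1 and S genes (15) and of all genes (32851). The CHR bar stands at 90.0% for G2 and M genes and the E2F bar at 33.3% for G1 and S genes, against 27.6% and 2.26% of all windows.

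The following windows show these letters in genes described below, with CHR, CCAAT and E2F matches in capitals on either strand. Mki67 and Top2a are the usual markers of dividing cells, Ccnb2 and Cdc20 act at entry to and exit from mitosis, Kif11 is a spindle motor, Cdk1 carries both CHR and E2F letters, and Mcm3 and Mcm6 stand for the replication genes.
Mki67, chr7:135716330-135716629, minus strand: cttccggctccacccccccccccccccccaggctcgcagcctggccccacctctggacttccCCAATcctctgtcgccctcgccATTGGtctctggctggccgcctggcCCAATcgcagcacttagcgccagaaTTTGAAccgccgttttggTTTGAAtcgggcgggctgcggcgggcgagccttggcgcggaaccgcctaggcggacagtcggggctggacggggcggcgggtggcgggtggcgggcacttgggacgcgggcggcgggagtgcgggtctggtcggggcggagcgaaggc
Top2a, chr11:99024140-99024439, minus strand: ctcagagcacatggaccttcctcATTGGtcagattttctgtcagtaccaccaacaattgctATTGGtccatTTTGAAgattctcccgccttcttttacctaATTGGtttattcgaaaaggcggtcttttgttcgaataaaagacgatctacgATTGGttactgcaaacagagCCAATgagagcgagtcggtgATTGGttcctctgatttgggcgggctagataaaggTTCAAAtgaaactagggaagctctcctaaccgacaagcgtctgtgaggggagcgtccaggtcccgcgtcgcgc
Ccnb2, chr9:70421505-70421804, minus strand: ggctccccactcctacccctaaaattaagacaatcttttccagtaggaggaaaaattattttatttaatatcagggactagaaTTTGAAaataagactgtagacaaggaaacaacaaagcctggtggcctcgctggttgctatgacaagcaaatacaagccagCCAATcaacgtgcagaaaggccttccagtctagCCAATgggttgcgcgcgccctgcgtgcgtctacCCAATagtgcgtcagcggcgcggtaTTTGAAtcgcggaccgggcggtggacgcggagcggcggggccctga
Cdc20, chr4:118437294-118437593, minus strand: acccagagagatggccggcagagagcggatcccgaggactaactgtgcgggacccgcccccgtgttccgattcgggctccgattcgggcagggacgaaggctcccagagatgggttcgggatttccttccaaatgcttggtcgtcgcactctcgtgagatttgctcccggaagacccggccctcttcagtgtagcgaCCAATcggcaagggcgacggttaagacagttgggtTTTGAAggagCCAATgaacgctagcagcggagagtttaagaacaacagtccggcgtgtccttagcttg
Kif11, chr19:37376132-37376431, plus strand: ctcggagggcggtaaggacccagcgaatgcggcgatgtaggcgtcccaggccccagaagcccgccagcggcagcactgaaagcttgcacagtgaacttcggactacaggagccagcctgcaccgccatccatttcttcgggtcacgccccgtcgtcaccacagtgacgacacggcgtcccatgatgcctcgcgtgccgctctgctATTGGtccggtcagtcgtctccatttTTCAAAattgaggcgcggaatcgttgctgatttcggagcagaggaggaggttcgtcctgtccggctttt
Cdk1, chr10:69352863-69353162, minus strand: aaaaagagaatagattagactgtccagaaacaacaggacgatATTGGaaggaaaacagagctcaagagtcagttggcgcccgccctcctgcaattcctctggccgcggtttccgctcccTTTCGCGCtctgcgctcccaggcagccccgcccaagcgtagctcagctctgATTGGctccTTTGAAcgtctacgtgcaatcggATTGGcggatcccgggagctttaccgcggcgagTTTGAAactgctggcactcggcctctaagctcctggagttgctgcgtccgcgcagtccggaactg
Mcm3, chr1:20820263-20820562, minus strand: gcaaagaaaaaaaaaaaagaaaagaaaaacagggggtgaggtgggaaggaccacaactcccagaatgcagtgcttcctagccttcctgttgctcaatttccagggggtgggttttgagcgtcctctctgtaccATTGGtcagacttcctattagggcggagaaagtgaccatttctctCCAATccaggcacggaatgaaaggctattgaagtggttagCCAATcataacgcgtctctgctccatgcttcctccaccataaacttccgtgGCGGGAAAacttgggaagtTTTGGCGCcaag
Mcm6, chr1:128359656-128359955, minus strand: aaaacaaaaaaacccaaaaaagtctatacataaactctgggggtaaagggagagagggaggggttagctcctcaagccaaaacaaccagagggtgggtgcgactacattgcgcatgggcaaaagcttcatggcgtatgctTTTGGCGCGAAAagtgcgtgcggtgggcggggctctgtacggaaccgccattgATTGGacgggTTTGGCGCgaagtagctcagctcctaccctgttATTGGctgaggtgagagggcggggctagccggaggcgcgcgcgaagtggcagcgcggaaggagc
In Cdc20 the CHR begins 18 bases before the start, and in Kif11 it begins 19 bases before it, read there as TTCAAA. The start itself was counted as the first of the 50 bases at the end of the window. Cdk1 has 2 CHR matches, at 71 and 15 bases before the start, and its E2F match lies 131 bases before it. In Mcm6 the E2F letters TTTGGCGC occur 110 and 47 bases before the start, the first overlapping a second match on the other strand.

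Recovered gene reads per library numbered between 44978380 and 52872577. The check of the genotype came first: Fezf2 had 1989, 1377 and 1533 normalised read counts in Fezf2 KO 1 to 3, against 5030.3, 5928 and 5396 in wild type 1 to 3. Fezf2 transcripts fell in KO pups (log2 -1.75, SE 0.129, limma adjusted p = 0.000832). A normalised read count is a gene's reads divided by the size factor of its library. It is not divided by gene length, so levels of different genes are not compared. In all 6 libraries the markers of cortical excitatory neurons were high, with summed normalised counts of 89441 to 101653 in Fezf2 KO and 86623 to 88804 in wild type. Fezf2 KO 1 stood apart in choroid plexus markers, which summed to 9514, of which Ttr gave 8950.1, while the sums were 113.2 and 114.8 in Fezf2 KO 2 and 3 and 54.2 to 82.9 in wild type. Ttr was also higher in Fezf2 KO 2 and 3, giving 65.6 and 68.0 of their sums, against 9.45 to 15.7 in wild type. With Fezf2 KO 1 left out, its log2 change was 2.33 (limma adjusted p = 0.0173). The other choroid plexus markers were not higher in both of these libraries. In Fezf2 KO 2 and 3 Folr1 had 4.49 and 15.9, against 4.3 to 12.22 in wild type. Clic6 had 25.15 and 15.01, against 18.05 to 28.8. Kl had 14.37 and 14.13, against 13.1 to 19.2, and Otx2 had 3.59 and 1.77, against 3.44 to 6.98. Striatal genes were lower in all 3 Fezf2 KO libraries, with sums of 4391, 9389 and 5656 in Fezf2 KO 1 to 3, against 11829.9 to 15399.8 in wild type.

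None of the 44 cell cycle genes differed between Fezf2 KO and wild type cortex past the threshold, which was a Benjamini-Hochberg adjusted p under 0.05 in limma on log2(normalised count + 1). The count was 0 higher and 0 lower, with 0 at an unadjusted p under 0.05, and edgeR and DESeq2 on the recovered reads also called 0. Over all 17557 entries tested, limma called 0.712% (0.404% higher and 0.308% lower), edgeR 0.689% and DESeq2 2.3%, and 9.03% had an unadjusted p under 0.05 in limma. In edgeR and DESeq2, too, 0 of the 44 genes had an unadjusted p under 0.05. The lowest adjusted p of a member was 0.68, for Mcm6. The log2 changes ran from -0.23 to 0.21 with a median of -0.03, beside a median of 0.002 over all entries tested; 14 were above and 30 below 0. In 0 of the 44 did all Fezf2 KO libraries lie above or below all wild type libraries, as they did in 14.5% of the entries tested (7.6% above and 6.85% below).

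The intervals show, gene by gene, how large a change the main limma fit of all 6 libraries leaves possible. For 42 of the 44 genes the 95% interval of the change lay within 1.5-fold in either direction, and for all 44 it lay within 2-fold. The exceptions at 1.5-fold were Ccnb1 (log2 -0.60 to 0.21) and Kif11 (log2 -0.61 to 0.16). The interval of Pcna ran from -0.16 to 0.15. An adjusted p above the threshold does not show that the genotypes are equal, and these intervals give the range that remains in that fit. Each interval is for a single gene and was not widened for the number of genes. The fit has genotype as its single term and includes Fezf2 KO 1, so other fits can leave other ranges.

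**Figure D2:**
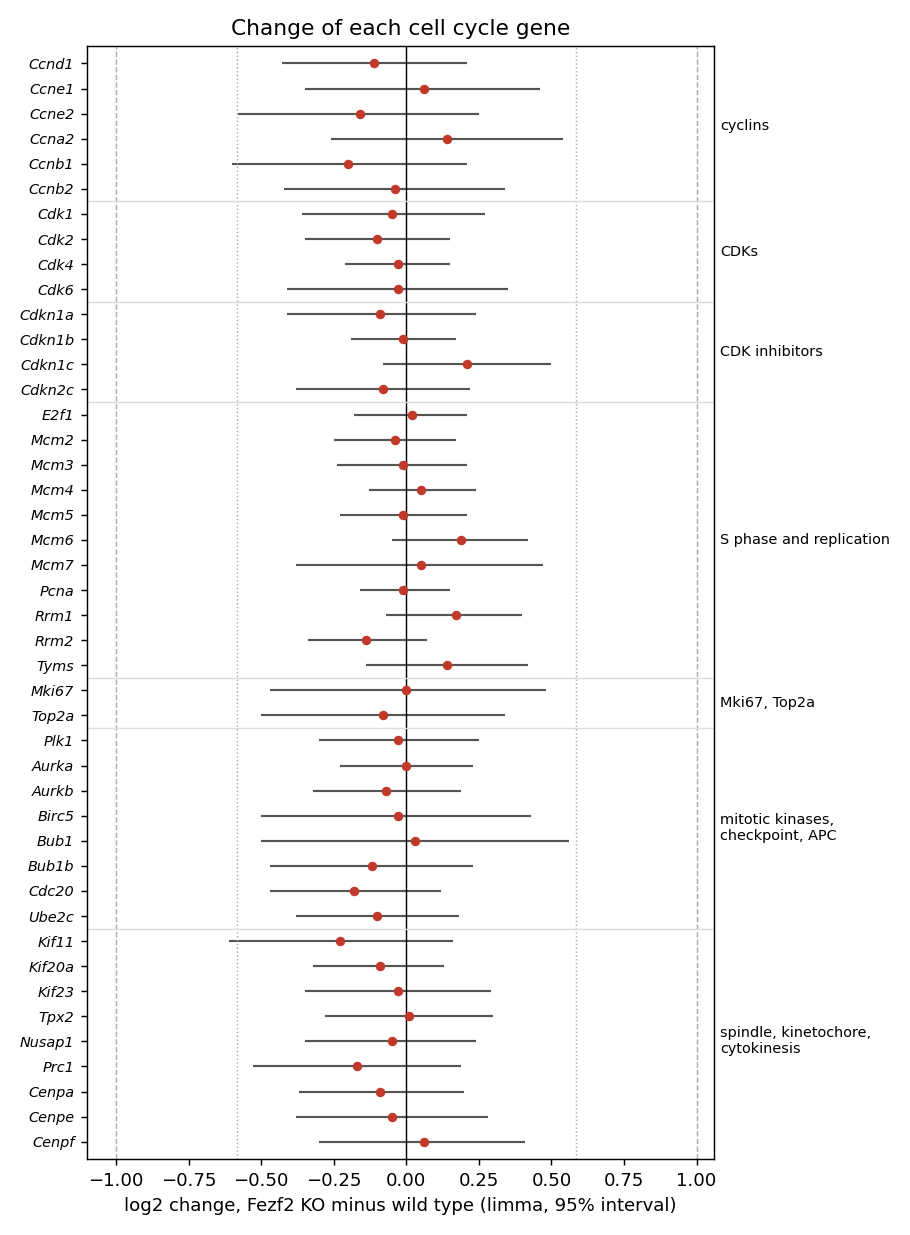
Log2 change of each of the 44 genes, Fezf2 KO minus wild type, as a point with its 95% interval from limma (n = 3 libraries per genotype), grouped by role; dotted lines mark 1.5-fold and dashed lines 2-fold. All intervals cross 0 and stay within the 2-fold lines, with medians by group between -0.07 for cyclins and 0.02 for the replication group.

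The cyclins set the timing of the cycle. Ccnd1, the D-type cyclin that answers growth signals in G1, had 1951, 2585 and 2396 normalised counts in Fezf2 KO 1 to 3, against 2751, 2024 and 2718 in wild type 1 to 3 (log2 -0.11, SE 0.141, limma adjusted p = 0.912). Its lowest value was in Fezf2 KO 1 and its highest in wild type 1, and the ranges of the genotypes overlapped between 2024 and 2585. Ccne2, an E-type cyclin of the step into S phase, had 60.1, 53.0 and 44.1 in Fezf2 KO, against 65.5, 55.9 and 54.1 in wild type (log2 -0.16, SE 0.181, limma adjusted p = 0.902). Ccnb1, the B-type cyclin that drives mitosis, had 222, 163 and 141 in Fezf2 KO, against 218, 197 and 179.6 in wild type (log2 -0.20, SE 0.176, limma adjusted p = 0.86). Here Fezf2 KO 1 was the highest of all libraries while Fezf2 KO 2 and 3 lay below all wild type libraries. The other cyclins had log2 changes of 0.06 (Ccne1), 0.14 (Ccna2) and -0.04 (Ccnb2).

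The kinases that cyclins activate had log2 changes from -0.10 to -0.03, all 4 below 0. Cdk1, the mitotic kinase, had 546, 445 and 382 normalised counts in Fezf2 KO 1 to 3, against 471, 505 and 428 in wild type 1 to 3 (log2 -0.05, SE 0.138, limma adjusted p = 0.971). Cdk2, the partner of cyclins E and A, had 359.7, 341 and 338 in Fezf2 KO, against 393, 324 and 404 in wild type (log2 -0.10, SE 0.109, limma adjusted p = 0.895). Cdk4, a partner of D-type cyclins, had 12272, 10073 and 10177 in Fezf2 KO, against 10732, 10757 and 11514 in wild type (log2 -0.03, SE 0.078, limma adjusted p = 0.97). Fezf2 KO 1 was above all wild type libraries and the other Fezf2 KO libraries below them. Cdk6, the other kinase of D-type cyclins, was nearly constant in wild type, at 148, 152 and 147, and spread over 184, 138 and 121 in Fezf2 KO.

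The inhibitors work against these kinases. Cdkn1c, which encodes p57, had 8808, 6179 and 6469 normalised counts in Fezf2 KO 1 to 3, against 6028, 6578 and 5705 in wild type 1 to 3 (log2 0.21, SE 0.126, limma adjusted p = 0.72). That was the most positive change among the 44 genes, and without Fezf2 KO 1 it was 0.05. Cdkn1a, which encodes the p53 target p21, had 982, 1296 and 865 in Fezf2 KO, against 1179.9, 1002 and 1113 in wild type (log2 -0.09, SE 0.142, limma adjusted p = 0.936). Cdkn1b, which encodes p27, had 5161, 4936 and 5536 in Fezf2 KO, against 5141, 4789.6 and 5826 in wild type (log2 -0.01, SE 0.079, limma adjusted p = 0.995). In both genotypes the pup of litter m2 had the most Cdkn1b. Cdkn2c, which encodes the Ink4 protein p18, had 665, 562 and 473 in Fezf2 KO, against 595, 646 and 545 in wild type (log2 -0.08, SE 0.131, limma adjusted p = 0.935).

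Among the replication genes 6 log2 changes were above 0 and 5 below, and none passed. Mcm6, a subunit of the helicase that opens DNA for copying, had 2494, 2072 and 2049.7 normalised counts in Fezf2 KO 1 to 3, against 2119, 1722 and 1966 in wild type 1 to 3 (log2 0.19, SE 0.102, limma adjusted p = 0.68). Only wild type 1 reached into the Fezf2 KO range. Rrm1, the large subunit of ribonucleotide reductase, had 1880.5, 1593 and 1462 in Fezf2 KO, against 1563, 1471 and 1347 in wild type (log2 0.17, SE 0.102, limma adjusted p = 0.731). Its partner Rrm2, the small subunit, had a change of the other sign, with 1259, 1081 and 1015 in Fezf2 KO, against 1268, 1177 and 1235 in wild type (log2 -0.14, SE 0.089).

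The other helicase subunits had log2 changes from -0.04 to 0.05. Mcm2 had 1914, 1646 and 1508 normalised counts in Fezf2 KO, against 1791, 1639 and 1753 in wild type (log2 -0.04, SE 0.092, limma adjusted p = 0.961). Mcm3, Mcm4, Mcm5 and Mcm7 had log2 changes of -0.01, 0.05, -0.01 and 0.05. Mcm7 ranged widely, at 5940.2 in Fezf2 KO 1 and 3545 in Fezf2 KO 3, and exons of Ap4m1 and Cops6 on the other strand overlap it. Pcna, the sliding clamp of DNA polymerase, had 2481, 2295 and 2292 in Fezf2 KO, against 2225, 2322 and 2556 in wild type (log2 -0.01, SE 0.069, limma adjusted p = 0.996). E2f1, the transcription factor upstream of many of these genes, had a log2 change of 0.02, and Tyms, which makes thymidylate, one of 0.14.

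Mki67 and Top2a are read most often as a measure of dividing cells. Mki67, the antigen Ki-67 that coats mitotic chromosomes, had 459.6, 393 and 298 normalised counts in Fezf2 KO 1 to 3, against 468, 395 and 289 in wild type 1 to 3. The change was 0.00 on the log2 scale (SE 0.208, limma adjusted p = 0.999). The genotypes covered nearly the same range, and the pup of litter m2 was the lowest in both. Top2a, the topoisomerase that untangles replicated DNA, had 996, 749 and 623 in Fezf2 KO, against 945, 863 and 671 in wild type (log2 -0.08, SE 0.184, limma adjusted p = 0.959). It too was lowest in the litter m2 pup of either genotype.

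Among mitotic kinases, checkpoint genes and the anaphase-promoting complex, 8 genes were tested, with log2 changes from -0.18 to 0.03 and a median of -0.05. Cdc20, which activates the anaphase-promoting complex, had 1015, 724 and 754 normalised counts in Fezf2 KO 1 to 3, against 998, 900.5 and 889 in wild type 1 to 3 (log2 -0.18, SE 0.130, limma adjusted p = 0.8). Ube2c, the ubiquitin-conjugating enzyme of that complex, had 729.9, 543 and 549 in Fezf2 KO, against 659.7, 666 and 616 in wild type (log2 -0.10, SE 0.122, limma adjusted p = 0.907). Both genes show the same order, with Fezf2 KO 1 above and Fezf2 KO 2 and 3 below all wild type libraries. Bub1b, a kinase-like protein of the spindle checkpoint, repeats it at 486, 332 and 344 in Fezf2 KO, against 436, 428 and 383 in wild type. Plk1 (log2 -0.03), Aurka (0.00), Aurkb (-0.07), its passenger complex partner Birc5 (-0.03) and the checkpoint kinase Bub1 (0.03) were nearer to 0.

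Spindle, kinetochore and cytokinesis genes had log2 changes from -0.23 to 0.06 (9 tested, median -0.05). Kif11, the kinesin that pushes spindle poles apart, had 222, 154 and 154 normalised counts in Fezf2 KO 1 to 3, against 202, 223 and 186 in wild type 1 to 3 (log2 -0.23, SE 0.167, limma adjusted p = 0.796). It was the most negative change of the 44 genes. Prc1, which bundles microtubules of the central spindle, had 506, 368 and 351 in Fezf2 KO, against 508, 462 and 396 in wild type (log2 -0.17, SE 0.157, limma adjusted p = 0.869). The centromeric histone gene Cenpa (log2 -0.09), the cytokinesis kinesins Kif20a (-0.09) and Kif23 (-0.03), the spindle proteins Tpx2 (0.01) and Nusap1 (-0.05), and the kinetochore genes Cenpe (-0.05) and Cenpf (0.06) made up the rest.

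**Figure D3:**
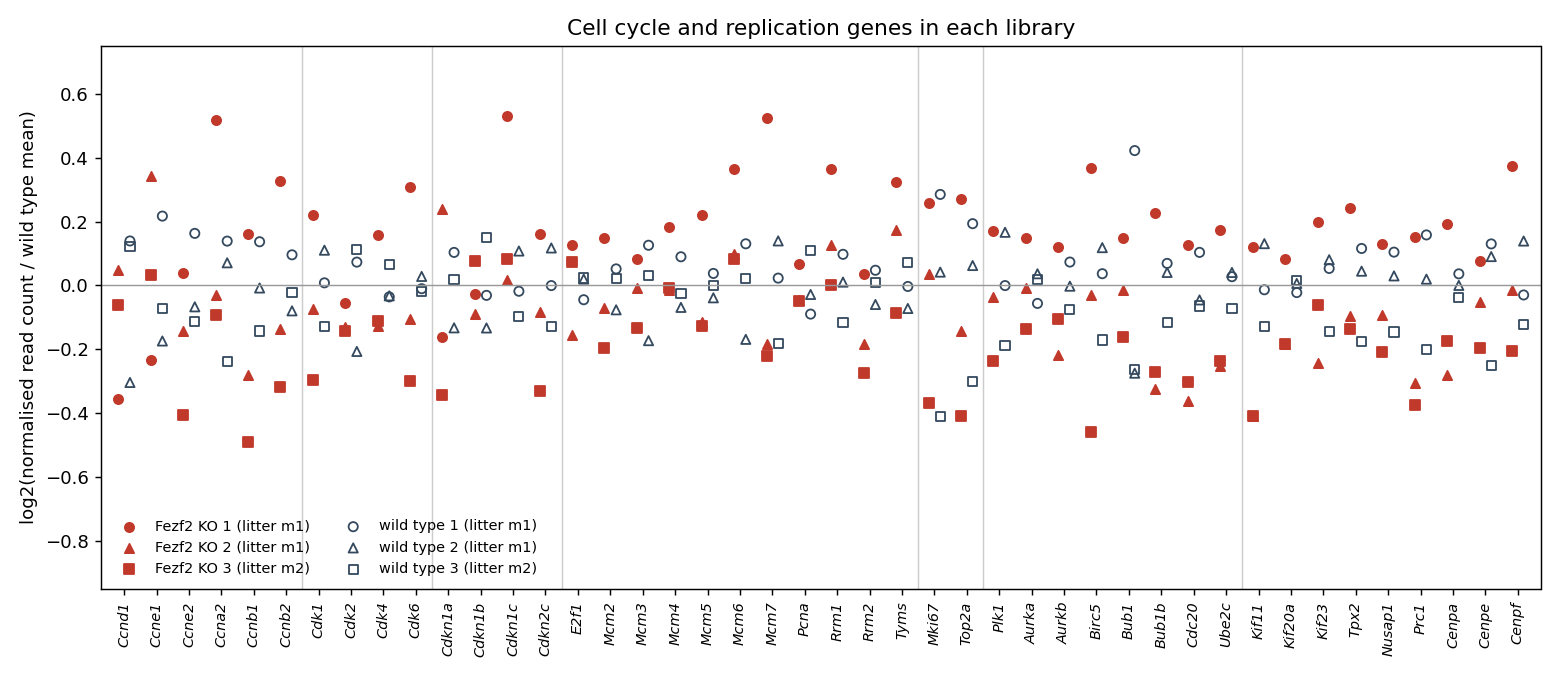
Log2 ratio of the normalised read count to the wild type mean (y axis) for each gene (x axis, ordered by role) in the 3 Fezf2 KO libraries (filled, left) and the 3 wild type libraries (open, right); circles and triangles are litter m1 and squares litter m2. Points of the genotypes overlap for all 44 genes, and the filled circles of Fezf2 KO 1 are the highest of the 6 libraries in 30 of them.

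Spread between pups was wider in the 44 genes than in the table at large. Their median residual SD in limma was 0.184 on the log2 scale, beside 0.12 over all entries tested, and for the G2 and M genes it was 0.201. In 35 of the 44 genes (79.5%) the range over the Fezf2 KO libraries was wider than the range over the wild type libraries, beside 52.7% of all entries tested. The median range was 0.42 in Fezf2 KO and 0.24 in wild type on the log2 scale, beside 0.22 in Fezf2 KO and 0.20 in wild type over all entries. These ranges were compared after the values were seen. The 44 genes are not independent replicates, and a single library can set the range in many of them at once. The count of genes therefore cannot decide whether the spread between pups differs by genotype.

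Fezf2 KO 1 held the highest of the 6 values in 30 of the 44 genes, as it did in 24.1% of all entries tested, and Fezf2 KO 3 held the lowest in 19, as in 12.5% of all. Each gene's log2 values were centred on their mean over the 6 libraries and averaged over a set. For the 23 G2 and M genes this gave 0.24, -0.12 and -0.22 in Fezf2 KO 1 to 3, against 0.13, 0.07 and -0.11 in wild type 1 to 3. For the 17 G1 and S genes the averages in Fezf2 KO were 0.14, -0.03 and -0.11, against wild type averages of 0.06, -0.07 and 0.01. Both sets were highest in Fezf2 KO 1 and lowest in Fezf2 KO 3. Without Fezf2 KO 1 the median log2 change of the 44 genes was -0.13, with 38 below 0, and limma still called 0 of them (lowest adjusted p = 0.229, for Cdc20), as it called 0.615% of all entries. At an unadjusted p under 0.05, 9 were then lower, namely Ccnb1, Cdk4, Rrm2, Bub1b, Cdc20, Ube2c, Kif11, Prc1 and Cenpa, beside 3.61% of all entries lower at that level. In 16 of the 44 genes (36.4%), 10 of them G2 and M genes, Fezf2 KO 2 and 3 lay below all wild type libraries, as in 11.7% of all entries. Each library was left out in turn as planned, but Fezf2 KO 1 was singled out after its values were seen, and it is the library with the most choroid plexus RNA and the least striatal RNA. The part of those tissues in the high values of Fezf2 KO 1 was not tested.

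Markers of the progenitors that divide in cortex were set beside these means. Radial glia markers (10 of 10 tested) summed to 36158 to 38780 in Fezf2 KO and 35662 to 39117 in wild type, and their centred averages were 0.04, 0.10 and -0.03 in Fezf2 KO 1 to 3, against 0.02, -0.06 and -0.07 in wild type 1 to 3. Intermediate progenitor markers (5 of 6 tested) summed to 6657 to 10163 in Fezf2 KO and 5954 to 8236 in wild type. Their centred averages in Fezf2 KO were 0.35, -0.19 and -0.25, against wild type averages of 0.29, 0.03 and -0.22. In these averages, as for the G2 and M genes, Fezf2 KO 1, wild type 1 and wild type 2 stood above 0, and Fezf2 KO 3 was lowest. Single markers did not all share that order. Mfap4 had 633 normalised counts in wild type 1, against 270 to 370 in the other libraries, and Gadd45g was highest in wild type 3. Eomes, the transcription factor TBR2 of intermediate progenitors, had 1544, 714 and 684 normalised counts in Fezf2 KO, against 1122, 1137 and 764 in wild type. Insm1 had 6461, 4393 and 4394 in Fezf2 KO, against 4850, 5230 and 3425 in wild type. For Neurog2 the values were 1049, 704 and 627 in Fezf2 KO, against 839, 678 and 640 in wild type. In these 2 genes, unlike Eomes, Fezf2 KO 2 lay above wild type 3. Limma called 0 of these radial glia and intermediate progenitor markers, with 1 at an unadjusted p under 0.05. Oligodendrocyte precursor markers (5 of 5 tested) summed to 20050.2 to 20981 in Fezf2 KO and 19804 to 20393 in wild type. Ganglionic eminence markers (7 entries of 6 genes) summed to 27305 to 28899 in Fezf2 KO and 24189.7 to 27767 in wild type. Dlx1 enters that sum with 2 entries, which gave 10616 and 8270 in Fezf2 KO 1. Of the 7 entries 5 had log2 changes above 0, while those of Gsx1 (-0.27) and Nkx2-1 (-0.39) were below 0. Endothelial and mural markers (8 of 8) summed to 11236 to 12332 in Fezf2 KO and 9144 to 11692 in wild type, and limma called 0 genes of these 3 lists, with 1, 2 and 2 higher at an unadjusted p under 0.05. Microglia markers (6 of 6) summed to 2519 to 2911 in Fezf2 KO and 2719 to 3337 in wild type, erythroid markers (4 of 6 tested) to 870.2 to 1533 in Fezf2 KO and 903 to 1080.2 in wild type, and meningeal markers (5 of 6 tested) to 889 to 1063 in Fezf2 KO and 598 to 4744 in wild type. The highest erythroid sum was that of Fezf2 KO 1 and the highest meningeal sum that of wild type 1. Across all the marker lists limma called 1 gene, the striatal Ppp1r1b, which was lower in Fezf2 KO. All 10 striatal markers were lower in Fezf2 KO at an unadjusted p under 0.05, with a median log2 of -1.33, and without Fezf2 KO 1 the median was -0.92. None of the markers in these lists was at 0 in all libraries, and the part of any of these cells in the spread of the 44 genes was not tested.

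**Figure D4:**
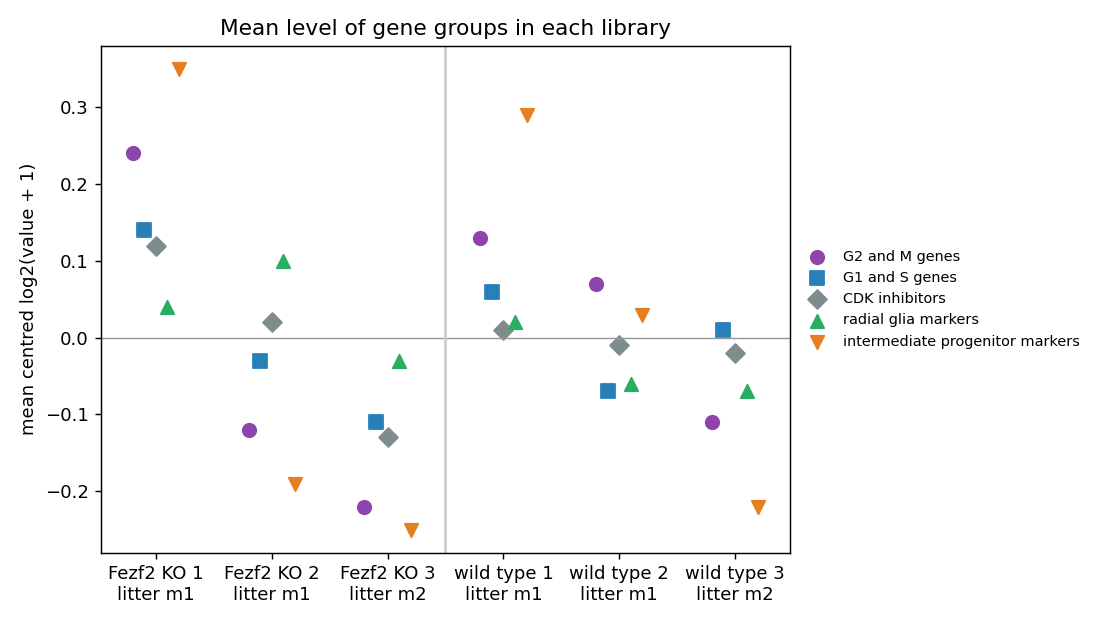
Mean of the centred log2(normalised count + 1) values (y axis) of G2 and M genes, G1 and S genes, CDK inhibitors, radial glia markers and intermediate progenitor markers in each library, Fezf2 KO on the left and wild type on the right. G2 and M genes stand at 0.24 in Fezf2 KO 1 and -0.22 in Fezf2 KO 3, and intermediate progenitor markers at 0.35 and -0.25 in the same libraries.

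Litter moved with several of these genes. In 12 of the 44 genes, 10 of them G2 and M genes, both litter m2 libraries lay below all 4 litter m1 libraries, as in 8.89% of all entries tested, and in 1 gene, Cdkn1b, both lay above all 4, as in 10.5% of all entries. With genotype and litter in 1 limma fit, Mki67 differed by -0.54 on the log2 scale in litter m2 relative to litter m1 (SE 0.115, limma adjusted p = 0.374). The litter difference of Top2a was -0.45 (SE 0.120, limma adjusted p = 0.398) and that of Plk1 was -0.29 (SE 0.078). The median over the G2 and M genes was -0.23 and over the G1 and S genes -0.06, beside 0.01 over all entries. No entry of the whole table passed the threshold for litter in limma, while at an unadjusted p under 0.05 there were 8 of the 44 genes lower in m2, beside 5.54% of all entries, and 1 higher, Cdkn1b, beside 4.42% of all entries. The litters were compared after the values were seen. Within litter m1 alone, with 2 pups of each genotype, limma called 0 of the 44 genes for genotype (lowest adjusted p = 0.744), with 0 at an unadjusted p under 0.05. Within litter m2 there was 1 pup of each genotype, so its values stand without a test.

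**Figure D5:**
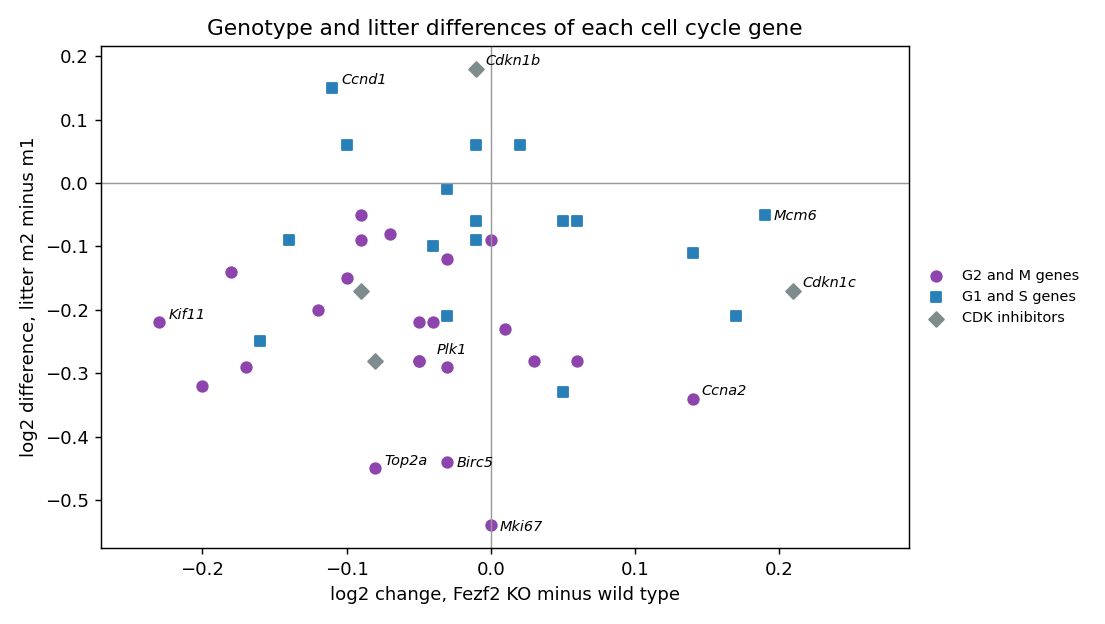
Log2 change of each gene between genotypes (x axis, Fezf2 KO minus wild type) and log2 difference between litters (y axis, m2 minus m1, from the limma fit with genotype and litter). Genotype changes lie between -0.23 and 0.21, while the litter differences of all 23 G2 and M genes are below 0 and reach -0.54 for Mki67.

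Other genes of the same pathways, taken from lists that did not overlap the 44, also gave 0 calls. Of 46 tested entries of other replication genes 0 were called higher or lower by limma, with 0 at an unadjusted p under 0.05 and a median log2 of -0.04. Orc6, a subunit of the origin recognition complex, had 695, 753 and 725 normalised counts in Fezf2 KO, against 639, 638 and 662 in wild type (log2 0.16, SE 0.072, limma adjusted p = 0.561), with no overlap. Rfc3, of the complex that loads the sliding clamp, had a log2 change of 0.11. Of 30 tested entries of other G1 regulators 0 were called, with 1 at an unadjusted p under 0.05, that of Fbxw7, which targets cyclin E for destruction. It had 4509, 4098 and 4083 in Fezf2 KO, against 3829, 3642 and 3971 in wild type (log2 0.15, SE 0.060, limma adjusted p = 0.496).

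Cdkn2a, the locus of the inhibitors p16 and Arf, has 2 entries in the table, and with few reads in each. The entry with the smaller p had 16.2, 15.3 and 15.9 normalised counts in Fezf2 KO, against 20.6, 23.6 and 23.2 in wild type (log2 -0.48, SE 0.210, limma adjusted p = 0.557). The other had a log2 change of -0.49 (SE 0.268), and reads of the exons that both products share may stand in either. Of 73 other mitotic genes 0 were called, with 0 at an unadjusted p under 0.05, a median log2 of -0.08 and 56 below 0. In 6 of them all Fezf2 KO libraries lay below all wild type libraries, and in 0 above, beside 6.85% below and 7.6% above over all entries. Aspm, a spindle pole protein that sets brain size, had 183, 181 and 173 in Fezf2 KO, against 221, 198 and 208 in wild type (log2 -0.22, SE 0.105, limma adjusted p = 0.603). Kif18a, a kinesin that aligns chromosomes, averaged 27.3 ± 4.24 in Fezf2 KO and 37.2 ± 7.82 in wild type (SD, n = 3 each; log2 -0.42, SE 0.226), with no overlap. Over these 3 lists edgeR and DESeq2 called 0 as well, with 2 and 1 at an unadjusted p under 0.05.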

How the data were processed

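Total RNA of dissected cortex was sequenced, with 1 TruSeq library from each brain read on an Illumina Genome Analyzer II, per the labels' protocols. Bowtie, STAR, DESeq and build mm9 are named in the submitters' processing notes without versions, and the sources used here do not state strand. The authors deposited a signal which, from its values, is each gene's read count over the size factor of its library, rounded. Dividing by the value of 1 read (0.812 to 0.936) gave whole reads within 0.006 for 100% of values.

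Entries that reached 10 in 3 or more libraries (17557) were fitted with limma (trend) on log2(value + 1), genotype as the single term, since the values were not counts. Changes on this scale understate those of genes with few reads. Adjusted p-values are Benjamini-Hochberg over all these entries, two-sided. Fits of recovered reads with edgeR and DESeq2 were alternatives. The fits were tested on simulated data. Tools were limma 3.58.1, DESeq2 1.42.0 and edgeR 4.0.16 in R 4.3.3, with Python 3.11.15.

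Litter, from the labels, pairs pups across genotypes. Over the tested genes, which are not independent replicates, deviations from the genotype mean correlated at r between -0.137 and 0.223 for 5 same-litter pairs. For 4 pairs across litters r was -0.162 to -0.0383. Fezf2 KO 1 with wild type 1 (-0.137) and Fezf2 KO 2 with wild type 2 (-0.0627) were negative within litter m1. Deviations from a genotype mean cancel out in each gene, which ties these values to one another, so they cannot decide whether litter mattered. Pups share a litter, and p-values measure the spread between these 6 pups. Named in full were 10 fixed markers, any gene at an unadjusted p under 0.05, and the 2 lowest p-values of each role group. For the pathway lists these were the 2 lowest. Of the 44 genes, Cdk6, Rrm2 and Bub1b are given with all their library values outside this rule. Genes were assigned to G1 and S or to G2 and M after the values were seen. Alternatives are given in the closing section. The members, lists and tests were chosen with earlier results of these data known. On GRCm38, exons of 13 of the 44 genes overlap a gene on the other strand, so without strand their reads are uncertain. Fezf2 and marker genes served as checks.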

Additional observations from a re-analysis of the deposited data

How the results depend on the processing

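The count of 0 changed genes among the 44, and among the 149 entries of the 3 pathway lists, stayed 0 under each alternative: pseudocount 0.5, no filter, edgeR with TMM or RLE factors, DESeq2, litter as a replicate block in limma (0 called, lowest adjusted p = 0.518 among the 44) or in edgeR (chosen after seeing the data), litter m1 alone, and each library left out. The median log2 of the 44 genes ran from -0.13 to 0.04 when 1 library was left out, and litter as a replicate block gave -0.03. The block changed no call. Among 20 named genes and 14 alternatives, 250 of 280 values kept their sign and 0 passed; 10 genes kept it throughout. In litter m1 alone the log2 change was of the other sign for Cdk1 (0.01), Cdk4 (0.05), Cdkn1a (0.05), Cdkn1b (0.02), Mcm2 (0.05), Pcna (0.07) and Mki67 (-0.02). That of Mki67 was also -0.0042 and -0.0031 by edgeR with TMM and RLE factors, -0.0039 by DESeq2 and -5.8e-06 by edgeR with litter as a block. Leaving out 1 library gave ranges of -0.25 to 0.01 for Ccnd1, -0.18 to 0.08 for Cdk1, -0.12 to 0.02 for Cdk4, -0.25 to 0.04 for Cdkn1a, -0.07 to 0.07 for Cdkn1b, -0.20 to 0.04 for Cdkn2c, -0.13 to 0.04 for Mcm2, -0.19 to 0.17 for Mki67, -0.05 to 0.05 for Pcna and -0.26 to 0.08 for Top2a. The cause of these sign changes was not tested. In windows that end at the start site, 13 of 20 of the G2 and M genes held a CHR, against 8268 windows of all promoters, and E2F letters stood in 4 of 15 windows of G1 and S genes, against 611 of all. The number of pups, 3 per genotype, limits the precision.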
